A study of Mus musculus with 8 samples.

Results

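Casq2, Hrc, Trdn and Jph2 encode 4 proteins of the calcium store of the cardiac sarcoplasmic reticulum and of its junction with the cell membrane. Their N6-methyladenosine (m6A) peaks were taken from 2 deposited tables by Entrez gene ID, whatever their change, which gave 10 of the 581 listed peaks and 4 of the 274 genes with a peak. The table of infarcted against sham-operated hearts held 3 of these peaks, in Hrc and Casq2, among 116. The table of infarcted hearts labelled aavFto against infarcted hearts labelled aavgnp held 7, in all 4 genes, among 465.

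Calsequestrin 2, the product of Casq2, is the main calcium-binding protein of the reticulum lumen in heart muscle. The histidine-rich calcium-binding protein Hrc also binds calcium there. Triadin, from Trdn, is a membrane protein that ties calsequestrin to the ryanodine receptor, the channel through which the store is released. Junctophilin 2, from Jph2, bridges the reticulum and the transverse tubule, so that the channel faces the calcium channels of the cell membrane. Inherited changes in CASQ2 and TRDN are known causes of stress-induced ventricular tachycardia, and JPH2 is a cardiomyopathy gene. m6A is a methyl mark within RNA that the enzyme FTO can remove.

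MeRIP-seq enriches RNA fragments that an anti-m6A antibody binds and reads them next to unselected fragments, the input. Left ventricles of wild-type C57BL/6 mice were harvested 1 week after surgery in 4 groups: sham, myocardial infarction (MI), MI plus aavgnp, and MI plus aavFto, each with 1 input and 1 MeRIP library. The labels expand neither vector name and give no promoter, and they do not say how many animals went into a library; aavFto is read here as a vector carrying Fto and aavgnp as its control. All vector hearts were infarcted, so no vector group has a sham counterpart. There were no replicates, so the differences below could not be set against a spread between hearts, and the p-values and false discovery rates (FDR) of the authors compare libraries. Each change is a log2 value read as MI over sham or aavFto over aavgnp, an order taken from the names of the comparisons that would turn every sign of a table if wrong. Read depth is unknown.

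Markers of cell types were looked up among the listed peaks, which hold no separate measure of expression. Whether their changes were corrected for input is not known. All 11 cardiomyocyte markers had a listed peak in the aavFto table and 3 of 11 in the MI table. By largest change 7 were positive and 4 negative with aavFto, and 1 (Nppa) was positive and 2 (Myh6 and Mybpc3) negative after MI. None of the 4 skeletal muscle counterparts (Casq1, Jph1, Ryr1 and Atp2a1) had a listed peak in either table. A missing peak does not show that a gene was not expressed, and the MI table lists only changes of at least 1.01. After MI, 4 of 8 fibroblast markers, 2 of 5 endothelial markers and 1 of 6 macrophage markers were listed, all with a positive largest change in the authors' deposited table, from 1.65 to 7.17. With aavFto, 5 fibroblast, 2 endothelial and 2 macrophage markers were listed, with 1, 0 and 1 of them positive. These marker counts take 1 value per gene. Over all listed peaks, 84.5% were positive after MI and 67.3% were negative with aavFto. No smooth muscle marker was listed in either table, and Hbb-bs was the 1 erythroid marker, in the aavFto table. The part of cell make-up in the values below was not tested. In such bulk tissue fewer cardiomyocytes, less RNA per cell and less methylation per RNA cannot be told apart here.

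The first comparison addressed how m6A in these RNAs differed between infarcted and sham hearts. Casq2 had 1 peak and its change was positive, while Hrc had 1 positive and 1 negative peak. None of the 3 peaks passed an FDR of 0.05, against 14.7% of all listed peaks. The Casq2 peak had an unadjusted p under 0.05, which 25.9% of listed peaks also had. Positive changes made up 84.5% of listed peaks. Among peaks enriched at least as strongly as the Casq2 peak 28.1% were negative, and 3 peaks are too few to be read against these shares. The table lists only changes of at least 1.01 in either direction. The absence of Trdn and Jph2 from it therefore does not say that they lacked m6A or that it was the same in both hearts.

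The Casq2 peak lay near the end of the gene that is transcribed last. Casq2 spans chr3:102086415-102146514 on the plus strand of mm10, and the peak spanned chr3:102145236-102145474, a single block of 239 nt ending 1040 nt before the end of the gene. The authors' deposited table gave it a fold enrichment of 45.6, with an enrichment p of 2.5e-06. Its log2 change of 3.36, a ratio of 10.3, had in the authors' deposited table a p of 0.0166 and an FDR of 0.163. It ranked 28 of 116 by size of change and 22 by differential p, so it sat in the upper part of the table without reaching the called peaks. The 3 peaks closest to it in enrichment p had changes between -1.33 and 2.0 in the authors' deposited table, all below the Casq2 value.

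Hrc, whose gene spans only 3705 nt (chr7:45335269-45338973, plus strand), carried 2 peaks with changes of opposite sign. The first, chr7:45335779-45336079, was 301 nt long and began 510 nt from the gene start. The authors' deposited table placed it at -1.67, a value 3.18-fold lower after MI, with a p of 0.142 and an FDR of 0.656. The second, chr7:45336768-45337368, was 601 nt long, the third longest of the table, and lay in the middle of the gene. In the authors' deposited table its change was 1.31, 2.48-fold higher after MI, with a p of 0.0631 and an FDR of 0.379. The peaks were 688 nt apart and their changes differed by 2.98 on the log2 scale, a difference for which the deposited values give no test. Both were strong by enrichment p, ranking 12 and 16 of 116, with fold enrichments of 48.5 and 47.6 in the authors' deposited table. By fold they fell below the table's median of 65.7.

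**Figure D1:**
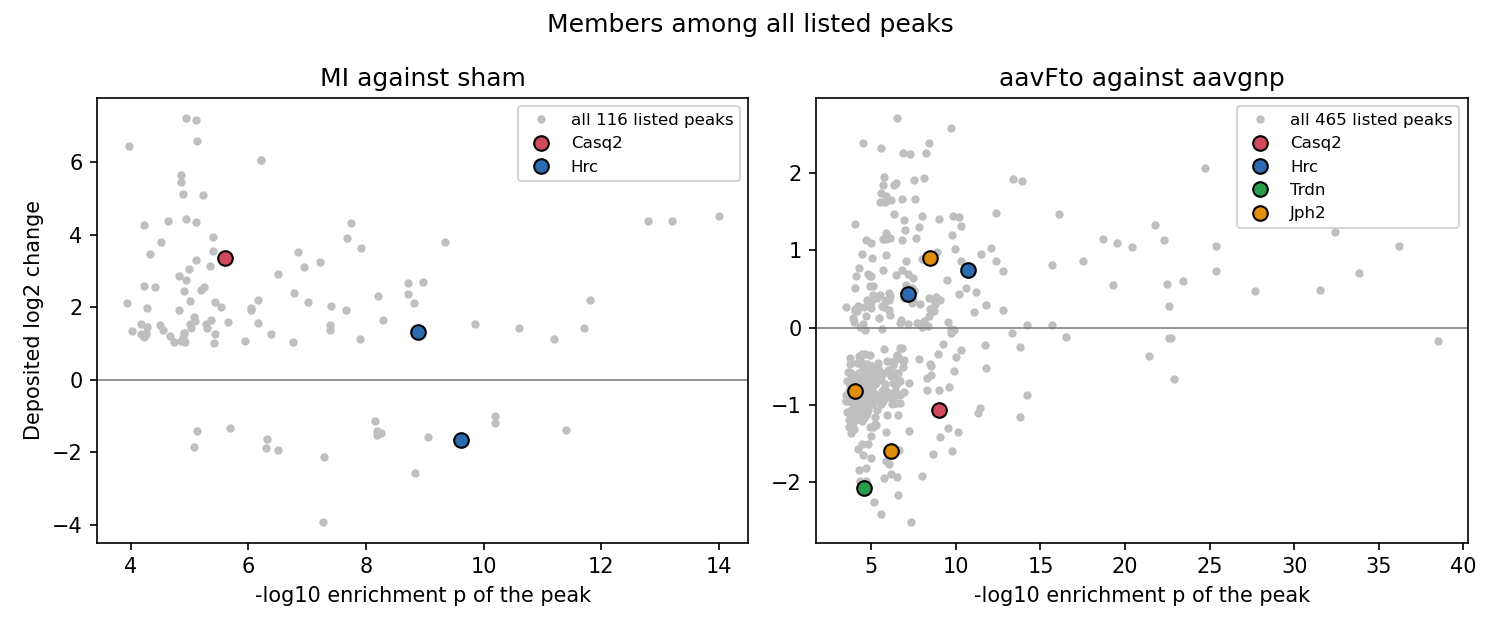
Each point is a listed peak, with the deposited log2 change on the vertical axis and -log10 of the enrichment p on the horizontal axis, for MI against sham (left) and aavFto against aavgnp (right). Large points are Casq2, Hrc, Trdn and Jph2; Casq2 at 3.36 and the Hrc peaks on the left lie within the range of the other points, and Trdn at -2.08 on the right lies toward the lower edge.

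The second comparison addressed how m6A differed between infarcted hearts given aavFto and those given aavgnp. All 4 genes were listed, and 3 peaks were positive (both of Hrc and 1 of Jph2) and 4 negative (Casq2, Trdn and 2 of Jph2). Negative changes made up 67.3% of all peaks listed there. None of the 7 passed an FDR of 0.05, against 1.72% of listed peaks, and none had an unadjusted p under 0.05, against 4.3%. All 7 shared an FDR of 0.713, the value that 443 of the 465 peaks carried. A change of at least 1 in either direction was listed for 3 of the 7, against 28.2% of all peaks. These 3, in Casq2, Trdn and Jph2, were all negative, as were 58% of all listed peaks with such a change. The median change of the 7 peaks was -0.82, beside -0.61 for the table.

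The store proteins came first. In this comparison the Casq2 peak, chr3:102145206-102145563, was 358 nt long and held a change of -1.07 (p = 0.542) in the authors' deposited table, 2.10-fold lower with aavFto. Its fold enrichment of 85.0 ranked 48 of 465 in the authors' deposited table, so by enrichment it stood in the upper part of the table. Hrc had the strongest peak of the 4 genes, chr7:45335809-45336948. That region ran over 1140 nt and had a fold enrichment of 116, the 10th highest of the authors' deposited table. The change there was 0.74 (p = 0.109), 1.67-fold higher with aavFto and the smallest p among the 7 in the authors' deposited table. Downstream, Hrc peak chr7:45337158-45337368 (211 nt, fold enrichment 80.7) stood at 0.44 (p = 0.643) in the authors' deposited table. Both Hrc peaks were thus positive but of small size, ranking 250 and 377 of 465 by absolute change.

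The junction proteins followed. Trdn had the largest change and the peak of lowest fold enrichment. The authors' deposited table gave it -2.08 (p = 0.244), 4.23-fold lower with aavFto and ranked 13 of 465 by size. The peak, chr10:33196053-33196112, covered 60 nt, and its fold enrichment of 17.5 ranked 456 of 465 in the authors' deposited table. It lay 112570 nt into a gene of 393227 nt, at 28.6% of the span. The 3 peaks closest to it in enrichment p had changes of -0.93 to 0.27 in the authors' deposited table, none as negative as Trdn.

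Jph2 had 3 peaks, 1 at the start of the gene and 2 near its end, and they differed in sign. Jph2 spans chr2:163336242-163398049 on the minus strand, so its start is at the higher coordinate. At the start, chr2:163397244-163397574, 331 nt long and 475 nt into the gene, had a change of 0.90 (p = 0.506) and a fold enrichment of 93.3 in the authors' deposited table. Toward the end, chr2:163339252-163339432, 181 nt long, stood at -1.60 (p = 0.349) with a fold enrichment of 62.1 in the authors' deposited table. The last, chr2:163337740-163337830, 91 nt long, stood at -0.82 (p = 0.596) with a fold enrichment of 48.6 in the authors' deposited table. Both peaks near the end, 1421 nt apart, were negative, and the nearer of them lay 57811 nt from the positive peak at the start. Enrichment fell in the same order as position along the gene. The change between the start and the middle peak differed by 2.5 on the log2 scale, which the deposited values do not test. At least 3 peaks, as in Jph2, were listed for 42 of 271 genes.

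**Figure D2:**
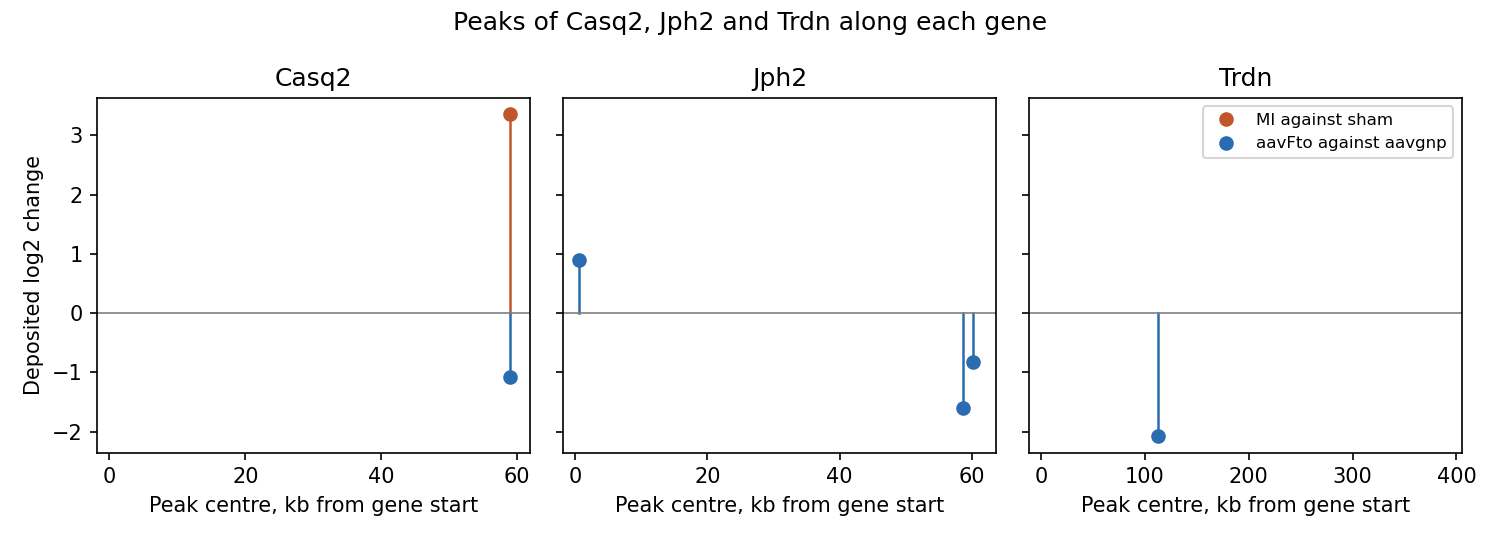
The deposited log2 change (vertical axis) of each peak of Casq2, Jph2 and Trdn is drawn at its centre's distance from the gene start in kb (horizontal axis, which spans each gene), with MI against sham in orange and aavFto against aavgnp in blue. Casq2 peaks of opposite sign coincide at the end of the gene, and Jph2 is positive at 0.90 near its start and negative at -1.60 and -0.82 near its end.

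All 10 peaks were single uninterrupted blocks, whereas 57.8% of the peaks in the MI table and 52.0% in the aavFto table were. Their lengths ran from 60 nt in Trdn to 1140 nt in Hrc. The median length was 301 nt for the 3 MI peaks and 211 nt for the 7 aavFto peaks, beside 150.5 and 181 nt over the tables. Exon and UTR limits were not used here, so the peaks are placed along the gene span only.

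Casq2 and Hrc could be followed across both comparisons, which share no libraries. Every one of their 3 MI peaks overlapped an aavFto peak by at least 1 nt on the same strand, as did 94% of all MI peaks. At Casq2 the 239 nt of the MI peak lay wholly within the aavFto peak, whose start differed by 30 nt and whose end by 89 nt. The deposited changes there were 3.36 after MI and -1.07 with aavFto, of opposite sign. In the authors' deposited tables the first had an unadjusted p of 0.0166 and the second of 0.542.

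Hrc was divided differently by the 2 tables. The 1140 nt aavFto peak bridged the gap between the MI peaks, overlapping the upstream one by 271 nt and the downstream one by 181 nt. The 211 nt aavFto peak lay wholly within the downstream MI peak, and both ended at the same base. MI peaks covered 902 nt of Hrc, 24.3% of the gene, and aavFto peaks 1351 nt, 36.5%. Upstream, the changes were -1.67 after MI and 0.74 with aavFto in the authors' deposited tables, of opposite sign. Downstream they were 1.31 after MI and 0.74 and 0.44 with aavFto in the authors' deposited tables, all positive. Of the 4 overlapping pairs in Casq2 and Hrc 2 thus had opposite signs, beside 63.1% of all 122 overlapping pairs.

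**Figure D3:**
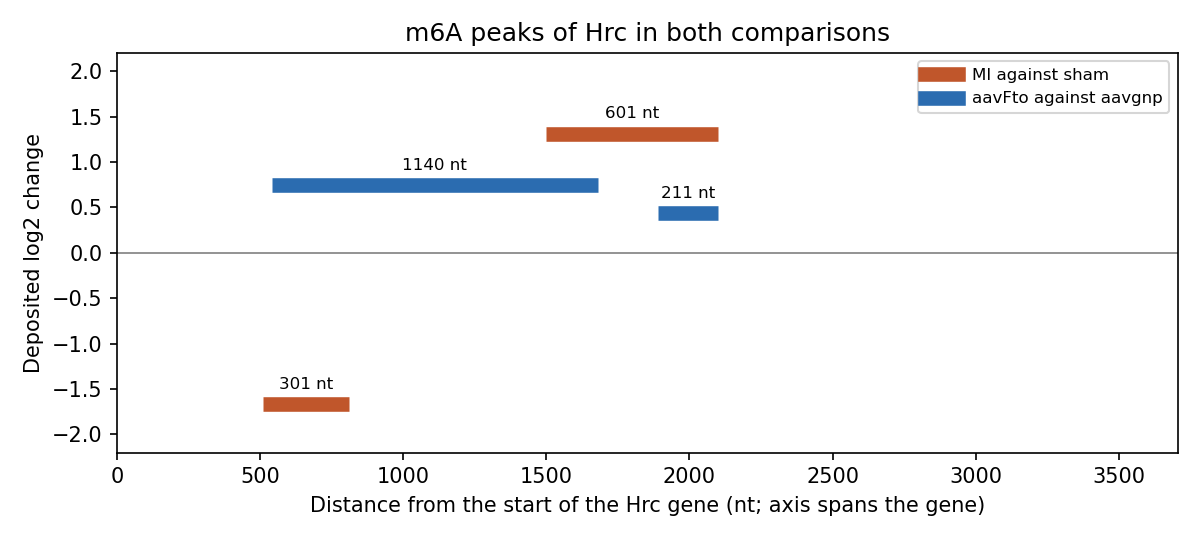
Bars are the m6A peaks of Hrc, placed by distance from the gene start in nt (horizontal axis, the whole gene) and by deposited log2 change (vertical axis), with MI against sham in orange and aavFto against aavgnp in blue. The 1140 nt aavFto peak at 0.74 spans the gap between the MI peaks at -1.67 and 1.31.

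A list of 44 other genes was drawn up for calcium handling around the reticulum and the dyad, and it also held Hspb6 and Myoz2. Of these 44 genes, 2 had a listed peak in the MI table and 8 in the aavFto table. Taking each gene's largest change, 1 was positive and 1 negative after MI, and 3 were positive and 5 negative with aavFto. Atp2a2, the calcium pump that fills the store, was the 1 gene with a peak past the FDR, in the MI table, at -3.93 (FDR 0.0288) in the authors' deposited table. Of all peaks listed after MI, 14.7% passed it. Both Atp2a2 peaks were negative after MI and the Casq2 peak was positive. With aavFto the authors' deposited table gave 5 Atp2a2 peaks, 4 positive at 1.14 to 2.39 and 1 negative at -1.16, and the Casq2 peak at -1.07. Pln, the inhibitor of that pump, stood at -1.09 (p = 0.54) and Ryr2, the release channel, at -0.93 (p = 0.57) with aavFto in the authors' deposited table. Casq2 and Trdn, which partner the release channel, were also negative, as were most peaks listed there. Both Hrc peaks were positive, and Jph2 had peaks of both signs. Of the luminal calcium binders, Calu stood at -0.67 with aavFto, and Calr had a peak of each sign in the authors' deposited table, 0.77 at a fold enrichment of 14.1 and -0.62 at 58.5. Speg, a kinase of the junction, stood at -0.86 and Myoz2, a calcineurin-binding protein of the Z-disc, at 0.08 in the same comparison of the authors' deposited table. Hspb6, a small heat shock protein of cardiac muscle, was at 1.30 after MI (p = 0.495) and -1.07 with aavFto (p = 0.542) in the authors' deposited tables. None of the 8 genes passed the FDR with aavFto, beside 1.72% of all peaks listed there. Atp2a2 alone had a peak with an unadjusted p under 0.05, 1 of the 14 peaks of these genes, beside 4.3% of all peaks. Its p in the authors' deposited table was 0.049, close to the threshold. Over the 14 peaks of these 8 genes, 6 were positive and 8 negative, with a median of -0.57, beside -0.82 over the 7 peaks of the store and junction genes and -0.61 over the table.

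**Figure D4:**
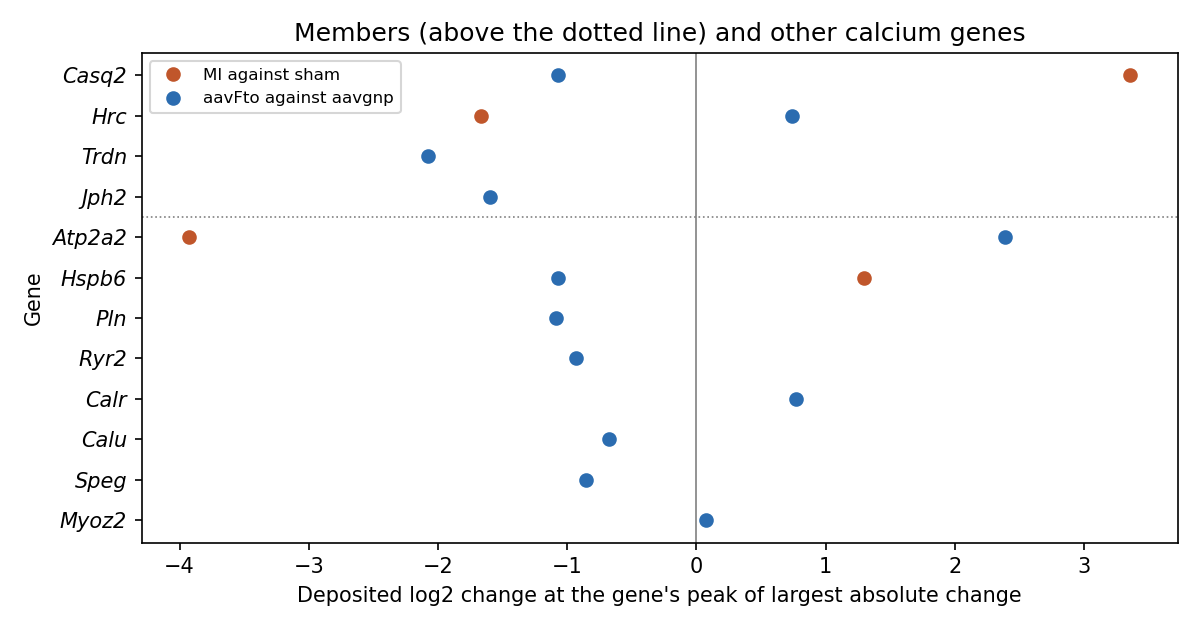
The horizontal axis gives the deposited log2 change at each gene's peak of largest absolute change, and the vertical axis the gene, with the store and junction genes above the dotted line, other calcium genes below it, MI against sham in orange and aavFto against aavgnp in blue. Casq2, Hrc, Atp2a2 and Hspb6 have a value in both comparisons, each pair on opposite sides of 0 at the largest change. Hrc after MI and Atp2a2 with aavFto also have a peak of the other sign. The share of such genes over all genes was not computed, and 63.1% of all 122 overlapping peak pairs had opposite signs.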

How the data were processed

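Per the submitters' processing notes, alignment used STAR 2.5.3a and the build mm10. Those notes name no peak caller, and the sources used here do not give the scaling of libraries or say whether the change was corrected for input. The authors deposited 1 table of peaks per comparison. Per the file headers, each peak had blocks, a strand, a gene ID, an enrichment p-value (as a score and as log10), an enrichment FDR (log10), a fold enrichment as a linear ratio, and a log2 change with its p and FDR as log10 values. The deposited score equalled the log10 p within 0.02 log10 units, apart from 25 aavFto peaks listed at 0. The authors' p-values were converted from log10 and none was computed here. No library counts were used, so depth is unknown.

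IDs were matched to RefSeq gene spans (GRCm38.p6, the assembly of mm10). Coordinates are 1-based. Blocks were overlapped in Python 3.11.15 with pandas 2.3.3, by code tested on simulated data. Linear ratios are 2 to the power of the log2 change. A gene with several peaks was given by its largest absolute change where a single value was needed. All peaks of the 4 genes are named, with up to 12 listed genes of a calcium handling list. Members and lists were chosen with earlier results of these data known.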

Additional observations from a re-analysis of the deposited data

How the results depend on the processing

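None of the 10 peaks met an FDR of 0.05, so the counts of 2 higher and 1 lower peaks after MI, and of 3 and 4 with aavFto, all became 0. With an unadjusted p under 0.05 the MI counts became 1 higher (Casq2) and 0 lower, and both aavFto counts 0. With an enrichment log10 p of at most -5 the lower aavFto count became 2, Trdn and the last Jph2 peak dropping out, and with an absolute change of at least 1 the higher aavFto count became 0. Gene-level signs depended on the peak chosen where a gene had peaks of both signs. Hrc after MI turned from -1.67 to 1.31 with its longest peak or that of smallest differential p, and its mean was -0.18. Jph2 turned from -1.60 to 0.90 with its longest or most enriched peak, and its mean was -0.51. Both Hrc peaks were positive with aavFto, so no choice could turn the sign, and the values ran from 0.59 to 0.74. With an overlap of at least 50% of the shorter peak 3 of the 4 overlapping pairs remained, and 0 had identical blocks. Among the other calcium genes, Calr turned from 0.77 to -0.62 with its most enriched peak. The share of negative peaks in the MI table went from 15.5% to 28.1% among peaks enriched at least as strongly as the weakest of these genes' peaks there. In total 29 values computed under an alternative, some of them named above, kept their sign, or a count or share within 1.5 times. A further 12 moved beyond that, counts that fell to 0 included, and 4 turned in sign. Some of the 29 could not change. The share of negative MI peaks at an absolute change of at least 1 is such a value, since the smallest change listed there was 1.01. No paired analysis was possible because each group had 1 library of each kind. Library depth was not analysed here, so the smallest change these libraries could show is unknown.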

Other observations

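Peak edges in these tables follow a grid, which bears on how finely the peaks of Casq2, Hrc, Trdn and Jph2 are placed. Of the single-block peaks, 95.5% in the MI table and 96.7% in the aavFto table had a length within 2 nt of a multiple of 30 nt. All 10 peaks described above are of that kind, from 60 nt in Trdn to 1140 nt in Hrc. The starts of the Casq2 peaks in the 2 tables, and of the upstream Hrc peaks, each differed by 30 nt, a single step of that grid.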
